A study of Mus musculus with 6 samples.

Results

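The expression of 45 genes that make, fold, export and crosslink collagen was examined in the outer and the intermediate interzone of mouse embryos. They were taken by gene name from a one-colour Agilent array, where 45 of 45 names were found, on 62 probes, among 35077 gene names in all. The genes fall into 5 roles. Of them, 10 act in general protein folding in the endoplasmic reticulum (ER), and 12 modify or chaperone procollagen. A further 9 build or load the COPII-coated carriers that take cargo out of the ER. Another 5 are transcription factors of the unfolded protein response, and 9 cleave propeptides or crosslink the finished fibril. Testing required a probe that the scanner called well above background in 3 of 3 samples of one layer or the other, and the brightest such probe stood for the gene. That held for 44 of the 45 genes, among 18001 genes tested, and Loxl4 was the exception.

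Collagen chains are hydroxylated and folded into a triple helix inside the ER, where the collagen-specific chaperone Hsp47 and several prolyl isomerases attend them. Procollagen then leaves in COPII-coated carriers, proteases remove its end pieces outside the cell, and lysyl oxidases start the covalent crosslinks that hold fibrils together. Cells that secrete much collagen, such as chondrocytes and tendon cells, depend on this route, and an overloaded ER switches on the unfolded protein response.

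The outer interzone samples and the intermediate interzone samples came from Mus musculus embryos at 15.5 days of gestation, with 3 arrays of each layer. The series' description counts 1 embryo as 1 biological replicate, without saying whether the same number in both layers marks the same embryo. No genotype, strain or treatment is named in the labels, nor do they say how one layer was taken apart from the other. Levels are log2 processed signal relative to each array's own 75th percentile, and differences are outer minus intermediate on that log2 scale. The 75th percentile was 47.4 to 290 on the outer arrays and 144 to 344 on the intermediate arrays, and outer replicate 1 was the dimmest array, with 35.6% of its spots called above background, while the other arrays had 45.1% to 53.4%. The 3 arrays of each layer limit the precision of every difference.

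The labelled tissue was checked against markers. All 6 interzone markers were measured, and their summed level was 35.3 to 128 in the outer and 41.9 to 115 in the intermediate samples, in multiples of the array's 75th percentile. Most of that sum is Gdf5 (-0.00, limma adjusted p = 0.998), while Erg and Wnt4 were called higher (0.95 and 3.41) and Gdf6 lower (-1.77) in the outer interzone. Of 12 cartilage markers 10 were called higher in the outer interzone, and the summed level was 621 to 914 in the outer and 82.1 to 146 in the intermediate samples. Of 12 leukocyte markers 11 were called lower in the outer interzone (8.79 to 26.4 in the outer, 85.9 to 153 in the intermediate samples), as were 7 of 12 endothelial markers (59.0 to 78.3 in the outer, 106 to 126 in the intermediate samples). The endothelial list had a median difference of -2.31, and its sums include Kdr, at 5.91, 4.66 and 5.52 in the outer and 4.88, 4.39 and 4.37 in the intermediate samples (0.82, limma adjusted p = 0.231). Erythroid and skeletal muscle markers had no calls among 6 and 9 tested, with summed levels of 81.6 to 1361 and 1.94 to 79.0 in the outer and 703 to 1992 and 13.8 to 148 in the intermediate samples. The 3 tested bone and perichondrium markers of 9 had none either (1060 to 2057 in the outer, 1010 to 1895 in the intermediate samples). Those were Col1a1, Col1a2 and Postn, while Sp7, Runx2, Alpl, Ibsp, Spp1 and Bglap were not tested. The part of these cell types in the results below was not tested, and fewer cells of a type and less RNA per cell cannot be told apart in such samples.

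Promoters of 6 of the 9 folding genes with a promoter window held a short element through which the response to ER stress is known to act, and these sequences are shown for that reason. RefSeq promoter windows (build GRCm38.p6, 250 bases before to 50 after the start) were at hand for 35 of the 45 genes. The ER stress response element, searched on both strands as CCAAT, any 9 bases and CCACG, was present for 6 of the 35, all of them folding genes, and for 37 of 27025 genes in all (0.137%). In these lines the element is in capitals, each line runs 5′ to 3′ along the gene's own strand, and for Calr and the second Hsp90b1 site the element lies on the opposite strand. The Hspa5 element starts 65 bases before the transcription start, and the first of the 2 in Hsp90b1 starts 212 bases before it. The printed window of Hspa5, flanks included, is chr2:34772013-34772055 (plus strand), and those of Hsp90b1 are chr10:86705626-86705668 and chr10:86705521-86705563 (minus strand). A match of letters is a description and does not show that a factor binds there.
Hspa5: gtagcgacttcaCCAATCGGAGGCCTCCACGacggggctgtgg
Hsp90b1, first: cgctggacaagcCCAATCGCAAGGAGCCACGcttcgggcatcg
Hsp90b1, second: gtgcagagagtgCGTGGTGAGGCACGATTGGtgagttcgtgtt
Calr: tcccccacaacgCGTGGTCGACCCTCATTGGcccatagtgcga
Canx: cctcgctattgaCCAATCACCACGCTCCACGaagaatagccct
Pdia6: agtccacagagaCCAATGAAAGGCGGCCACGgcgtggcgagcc
Dnajc3: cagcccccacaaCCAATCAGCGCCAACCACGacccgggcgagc

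Across the 44 tested genes, 4 passed adjusted p 0.05 in limma (Benjamini-Hochberg over all 18001 genes), and all 4 belong to the propeptide cleavage and crosslinking role. The pro-collagen C-proteinase enhancer gene Pcolce2 and the lysyl oxidase gene Loxl3 were higher in the outer interzone, and the lysyl oxidase genes Lox and Loxl1 were lower. Over all genes 4.05% passed, 1.57% higher and 2.48% lower in the outer interzone, against 2 higher and 2 lower of 44 here. Of the 8 tested genes of propeptide cleavage and crosslinking 4 passed. Of the 36 tested genes of the other 4 roles 0 passed, 1 of them (Atf6) at an unadjusted p under 0.05. Over all 18001 genes, 3793 were at an unadjusted p under 0.05. The groups did not overlap for 11 of the 44 genes, against 27.1% of all genes. Restricted to genes well above background on all 6 arrays, the same 4 members passed, where 3.1% of all genes did.

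**Figure D1:**
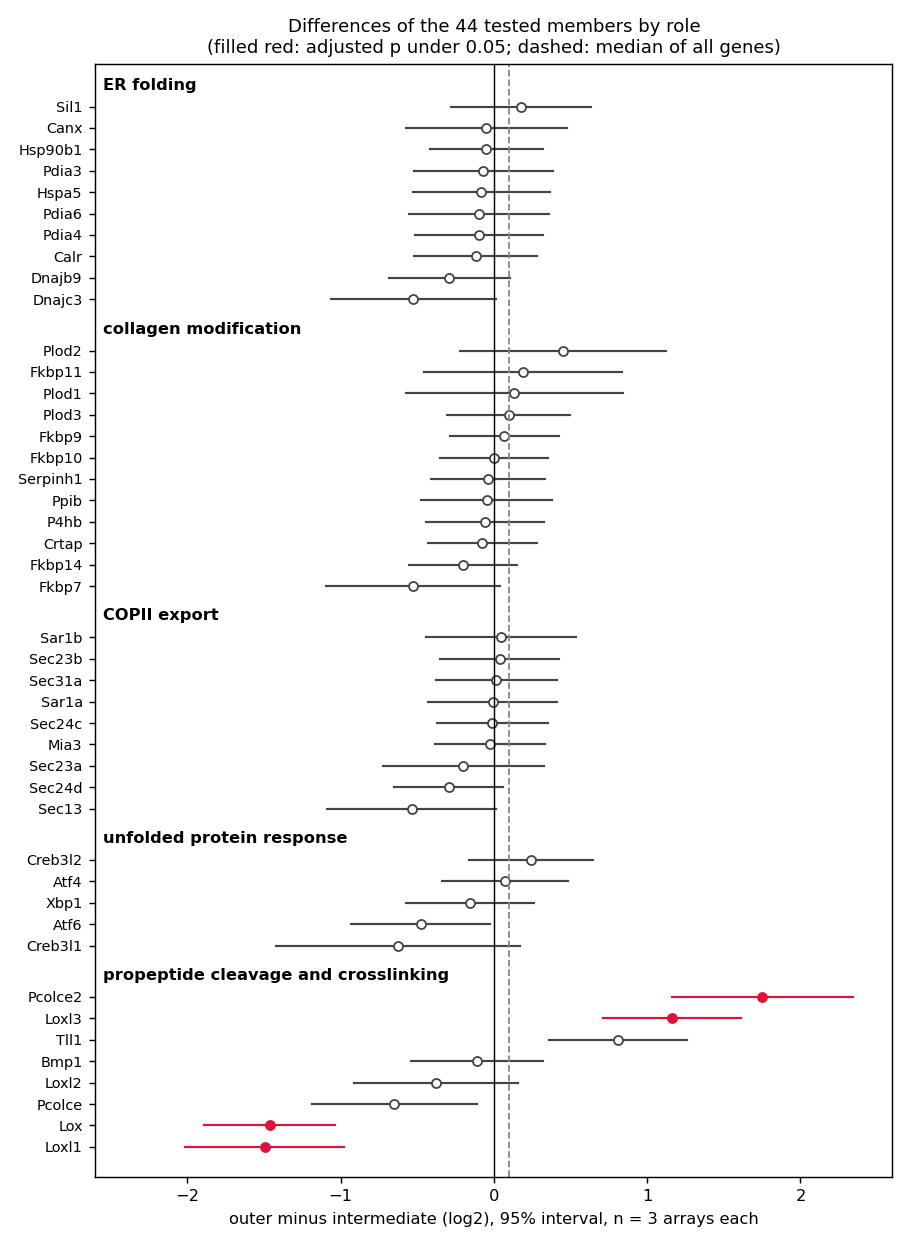
Outer minus intermediate difference (log2, horizontal axis) with its 95% interval for each of the 44 tested genes, grouped by role, with 3 arrays per layer. Pcolce2 at 1.75 and Loxl3 at 1.16 lie to the right, Lox at -1.46 and Loxl1 at -1.49 to the left, and all 36 genes of the upper 4 roles lie between -0.63 and 0.45.

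The folding, modification, export and stress-response genes lay close together in both layers. Their 36 differences had a median of -0.05 and a median absolute size of 0.10, against a median of 0.10 and a median absolute size of 0.29 over all genes. The difference was under 0.2 in absolute size for 26 of the 36, against 36.5% of all genes. With the scaling as reported, the whole 95% interval lay within 1 log2 unit (2-fold) of 0 for 31 of the 36, against 60.4% of all genes. Their median SD within a layer was 0.16, against 0.28 over all genes, and their median level was 4.26, against 0.87, and the part of signal level in these sizes was not tested. The propeptide and crosslinking genes had a median absolute size of 0.99. Scaling each array to its median, as the authors' deposited values are, moved the median of all genes to -0.29 and the medians of the folding, modification, export and stress-response roles to -0.48, -0.41, -0.40 and -0.55, with no gene of these roles called. Lower 95% limits then lay beyond 1 log2 unit for Hspa5 (-1.11), Calr (-1.10), Canx (-1.12), Pdia6 (-1.13) and Sar1a (-1.02), among others. That of Hsp90b1 (-0.97) did not. The count of 31 therefore belongs to the scaling as reported, and a 2-fold difference is not excluded for these genes under median scaling.

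**Figure D2:**
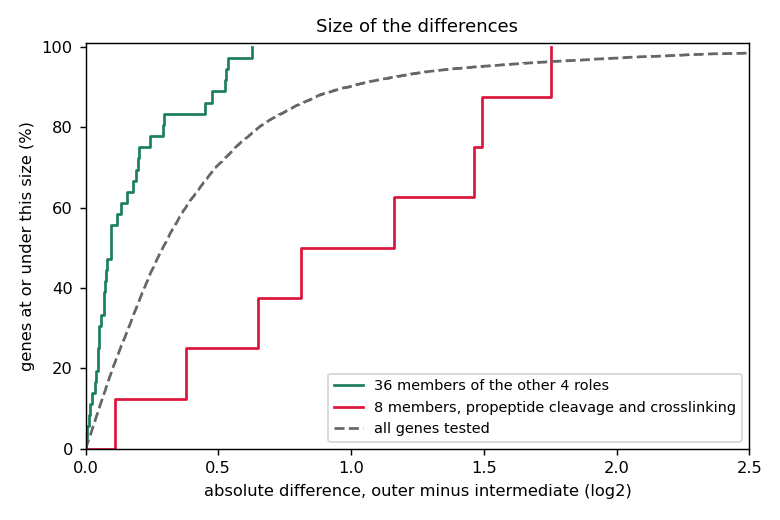
Cumulative share of genes (percent, vertical axis) at or under a given absolute difference between outer and intermediate interzone (log2, horizontal axis). The curve of the 36 genes of the inner 4 roles ends at 0.63, while that of the 8 propeptide and crosslinking genes ends at 1.75 and the dashed curve stands for all 18001 genes tested.

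Among the 10 folding genes, none passed, and 1 difference was above 0 and 9 were below it, with a median of -0.09. Hspa5, the Hsp70 chaperone BiP and main sensor partner of the stress response, stood at 6.30, 6.70 and 6.72 in the outer and 6.50, 6.76 and 6.70 in the intermediate samples (replicates 1, 2 and 3). Hsp90b1, the Hsp90 chaperone of the ER, stood at 6.58, 6.56 and 6.41 in the outer and 6.54, 6.66 and 6.50 in the intermediate samples. The layers overlapped for both, with differences of -0.08 (95% interval -0.53 to 0.37, limma adjusted p = 0.841) and -0.05 (-0.42 to 0.32, limma adjusted p = 0.885). Calr and Canx encode lectin chaperones that hold glycoproteins until they fold. Calr stood at 5.45, 5.60 and 5.78 in the outer and 5.65, 5.85 and 5.69 in the intermediate samples (-0.12). Canx stood at 5.08, 5.57 and 5.56 in the outer and 5.17, 5.52 and 5.67 in the intermediate samples (-0.05). Both overlapped between the layers. Pdia6, a disulfide isomerase, stood at 7.03, 7.47 and 7.20 in the outer and 7.16, 7.52 and 7.32 in the intermediate samples. Samples of the same replicate number lay closer together than samples of the same layer for Pdia6, where replicate 2 was the highest of both layers. The disulfide isomerase genes Pdia3 and Pdia4 differed by -0.07 and -0.10.

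The co-chaperones of BiP held the largest differences of this role. Dnajc3, which encodes p58IPK and carries the stress element shown above, stood at 0.57, 1.13 and 1.27 in the outer and 1.62, 1.34 and 1.60 in the intermediate samples. The layers did not overlap, and the difference of -0.53 (SE 0.23, 95% interval -1.07 to 0.01) did not pass (limma adjusted p = 0.247). Dnajb9, another J-domain partner of BiP, stood at 0.50, 0.32 and 0.37 in the outer and 0.50, 0.79 and 0.77 in the intermediate samples (-0.29, limma adjusted p = 0.367), the layers meeting at 0.50. Its second probe pointed the other way, at 0.38. Sil1, the nucleotide exchange factor of BiP, stood at 4.01, 3.64 and 3.58 in the outer and 3.68, 3.63 and 3.38 in the intermediate samples (0.18, limma adjusted p = 0.635). Of the 6 genes with the stress element, 6 had differences below 0, from -0.53 to -0.05, as did 7191 of all 18001 genes, and none passed. Without outer replicate 1, the dimmest array, Canx, Hspa5 and Pdia6 were above 0, at 0.11, 0.06 and 0.01.

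**Figure D3:**
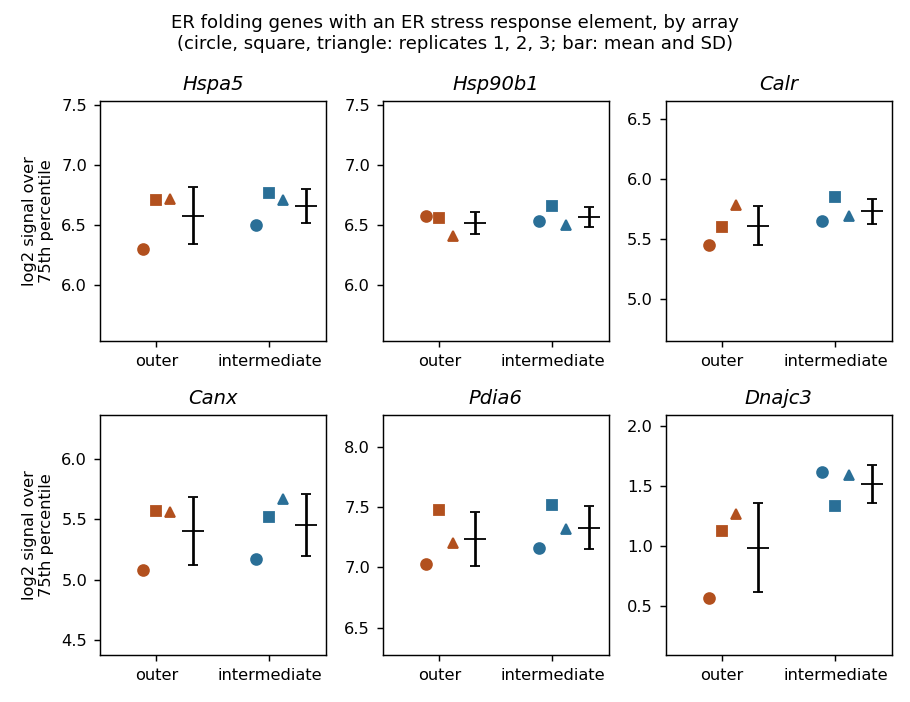
Level of 6 folding genes with an ER stress response element (log2 signal over the array's 75th percentile, vertical axis, scaled per panel) on each array, outer samples left and intermediate samples right, with mean and SD. Hspa5, Hsp90b1, Calr, Canx and Pdia6 overlap between the layers, and Dnajc3 is at 0.57 to 1.27 in the outer and 1.34 to 1.62 in the intermediate samples.

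The enzymes and chaperones that act on procollagen itself had a median difference of -0.02 over 12 genes, and none passed. Serpinh1, which encodes Hsp47, stood at 7.33, 7.52 and 7.54 in the outer and 7.48, 7.58 and 7.45 in the intermediate samples, a difference of -0.04 (95% interval -0.41 to 0.34, limma adjusted p = 0.916). The intervals of P4hb (-0.45 to 0.33), the shared subunit of prolyl 4-hydroxylases, of Crtap (-0.43 to 0.28) and Ppib (-0.48 to 0.38), partners in the prolyl 3-hydroxylation complex, and of Fkbp10 (-0.35 to 0.35), the isomerase FKBP65, also lay within 1 log2 unit of 0. Fkbp10 was at 7.12 to 7.19 in the outer and 7.12 to 7.20 in the intermediate samples. Fkbp9, Plod1, Plod3 and Fkbp11 differed by 0.07, 0.13, 0.10 and 0.19. A second tested probe of Plod1 gave 0.55. With each array scaled to its median, the lower limits of Serpinh1 (-1.001), P4hb (-1.005) and Ppib (-1.05) lay beyond 1 log2 unit. Those of Crtap (-0.98) and Fkbp10 (-0.92) did not.

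The 3 largest differences of this role were those of Fkbp7, Plod2 and Fkbp14. Fkbp7, an ER prolyl isomerase, stood at 4.10, 3.83 and 3.59 in the outer and 4.70, 4.43 and 3.99 in the intermediate samples (-0.53, SE 0.24, limma adjusted p = 0.267). Within each replicate number the outer value was the smaller, but outer replicate 1 lay above intermediate replicate 3. Plod2, the lysyl hydroxylase of the collagen telopeptides, stood at 3.96, 3.91 and 3.83 in the outer and 3.51, 3.97 and 2.87 in the intermediate samples (0.45, limma adjusted p = 0.41), so intermediate replicate 3 was the low sample. Fkbp14 stood at 4.22, 4.32 and 4.34 in the outer and 4.48, 4.48 and 4.52 in the intermediate samples. The layers did not overlap for Fkbp14, yet the difference of -0.20 was small and did not pass (limma adjusted p = 0.481).

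The 9 COPII genes had the smallest median absolute difference of the 5 roles, 0.04, and none passed. Sec24c and Sec23b of the inner coat and Sec31a of the outer coat differed by -0.02 to 0.05. So did the GTPases Sar1a and Sar1b that start the coat, and Mia3, the receptor TANGO1 that loads bulky procollagen. Those values are of the brightest probes. Second probes gave -0.39 for Sec31a, -0.19 for Mia3 and 0.02 for Sar1a. Sec13, which pairs with Sec31, stood at 2.16, 2.44 and 1.81 in the outer and 2.73, 2.90 and 2.38 in the intermediate samples (-0.54, SE 0.23, limma adjusted p = 0.247). Sec24d, a cargo adaptor of the inner coat, stood at 2.09, 2.08 and 1.97 in the outer and 2.36, 2.34 and 2.32 in the intermediate samples (-0.30, limma adjusted p = 0.312), without overlap. Sec23a stood at 0.83, 0.71 and 0.12 in the outer and 0.75, 0.71 and 0.81 in the intermediate samples, so outer replicate 3 was the low sample and the layers overlapped (-0.20, limma adjusted p = 0.647).

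None of the 5 transcription factors of the stress response passed. Creb3l1, known as OASIS and needed for collagen I in bone of the mouse, stood at 3.48, 2.46 and 2.72 in the outer and 4.03, 3.20 and 3.30 in the intermediate samples, a difference of -0.63 (SE 0.34, limma adjusted p = 0.339). Within each replicate number the outer value was below the intermediate one, and Creb3l1 passed in the fit blocked on replicate number (SE 0.12, limma adjusted p = 0.0499), where 9.08% of all genes did. With slide as a block, which leaves outer replicate 1 alone to be set against the 3 intermediate arrays, its difference was -0.03. Creb3l2, known as BBF2H7 and an activator of Sec23a in mouse chondrocytes, stood at 1.73, 1.65 and 1.54 in the outer and 1.60, 1.35 and 1.25 in the intermediate samples (0.24, limma adjusted p = 0.463).

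Atf6, a membrane-bound sensor that is cleaved under stress, stood at -2.04, -2.04 and -2.23 in the outer and -1.67, -1.87 and -1.35 in the intermediate samples (-0.48, limma adjusted p = 0.217). It was well above background on 2 of the 3 outer arrays. Xbp1 and Atf4, factors that are themselves regulated by splicing and by translation, which a signal per gene does not show, differed by -0.15 and 0.07. A second probe of Atf4 gave -0.26.

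In the propeptide and crosslinking role, members of one family went in opposite directions. Lox, the founding lysyl oxidase, stood at 1.41, 1.44 and 1.19 in the outer and 3.01, 2.79 and 2.62 in the intermediate samples. All outer samples were below all intermediate ones, and the difference was -1.46 (SE 0.18, 95% interval -1.89 to -1.03, limma adjusted p = 0.0139), 2.75-fold lower in the outer interzone. A second probe of Lox gave -1.42. Loxl1, the lysyl oxidase tied to elastic fibres, stood at 3.40, 4.10 and 3.67 in the outer and 5.28, 5.31 and 5.07 in the intermediate samples. It was 2.82-fold lower in the outer interzone (-1.49, SE 0.22, 95% interval -2.01 to -0.98, limma adjusted p = 0.0193).

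Both probes of Loxl1 gave the same direction, at -1.49 and -1.73. They are printed because they are the stretches on which this result rests. Both lie on the minus strand of chromosome 9 in build mm9, the brighter at chr9:58138570-58138629 and the second at chr9:58145451-58145510.
Loxl1 brighter probe: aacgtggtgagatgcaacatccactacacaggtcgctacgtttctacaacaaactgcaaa
Loxl1 second probe: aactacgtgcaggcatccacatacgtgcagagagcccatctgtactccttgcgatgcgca

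Loxl3, a lysyl oxidase of the branch with scavenger receptor domains, went the other way. It stood at 1.77, 1.81 and 1.63 in the outer and 0.65, 0.79 and 0.28 in the intermediate samples, without overlap, and was 2.24-fold higher in the outer interzone (1.16, SE 0.19, 95% interval 0.71 to 1.61, limma adjusted p = 0.0255). Loxl2, of the same branch, stood at 4.71, 4.65 and 4.92 in the outer and 5.31, 5.39 and 4.72 in the intermediate samples (-0.38, limma adjusted p = 0.382), and its 2 other probes gave -0.09 and -0.11. Loxl4, the remaining family member, was not tested, since its better probe was well above background on 1 outer array and 1 intermediate array, with levels of -3.93, -2.66 and -3.86 in the outer and -4.24, -4.49 and -3.72 in the intermediate samples.

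Pcolce2, whose protein speeds the removal of the C-propeptide, stood at 2.45, 2.01 and 2.21 in the outer and 0.05, 0.86 and 0.51 in the intermediate samples. Its lowest outer sample was above its highest intermediate sample, and it was 3.37-fold higher in the outer interzone (1.75, SE 0.25, 95% interval 1.16 to 2.34, limma adjusted p = 0.0181). Its relative Pcolce stood at 6.98, 6.60 and 6.86 in the outer and 7.83, 7.13 and 7.42 in the intermediate samples, with all 3 outer values below all intermediate ones but without passing (-0.65, SE 0.23, limma adjusted p = 0.17). The probe of Pcolce2 is given for the same reason as those of Loxl1 (chr9:95595436-95595495, mm9, plus strand).
Pcolce2 probe: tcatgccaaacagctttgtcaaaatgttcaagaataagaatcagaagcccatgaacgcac

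**Figure D4:**
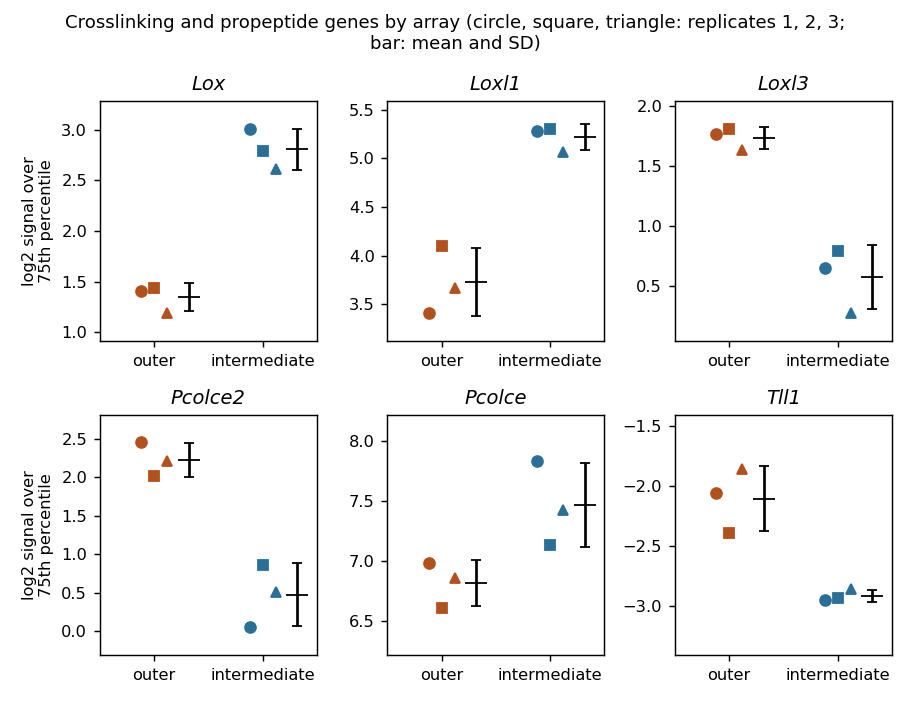
Level of 6 propeptide and crosslinking genes (log2 signal over the array's 75th percentile, vertical axis, scaled per panel) on each array, outer samples left and intermediate samples right, with mean and SD. In Lox and Loxl1 every outer sample lies below every intermediate one, and in Loxl3 and Pcolce2 every outer sample lies above.

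The proteinases themselves did not pass. Bmp1, the main procollagen C-proteinase, stood at 4.84, 4.58 and 4.50 in the outer and 4.87, 4.83 and 4.56 in the intermediate samples (-0.11, limma adjusted p = 0.767). Of its 3 probes, one gave -0.67 (limma adjusted p = 0.0775 over all probes), at 3.41 to 3.58 in the outer and 4.08 to 4.25 in the intermediate samples, so the probes of this gene disagree. Tll1, a related tolloid proteinase, stood at -2.06, -2.39 and -1.86 in the outer and -2.95, -2.94 and -2.86 in the intermediate samples (0.81, SE 0.19, limma adjusted p = 0.0662), with 2 of 3 outer arrays well above background. Tll1 passed when blocked on replicate number (limma adjusted p = 0.0447) and without outer replicate 2 (0.0398). Without outer replicate 1, the dimmest array, its difference was 0.79 and did not pass (limma adjusted p = 0.133). The Tll1 difference was 0.22 with normexp and quantile normalization and 0.42 with each array scaled to its median (limma adjusted p = 0.345 and 0.341).

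The 4 calls depended on which arrays were included. Leaving out outer replicate 3, intermediate replicate 1 or intermediate replicate 3 left 0 of the 44 genes past the threshold in limma, with 6, 5 and 8 at an unadjusted p under 0.05, while 90, 137 and 66 of all genes passed. Over the 6 fits that each left out 1 array, the differences were -1.56 to -1.36 for Lox, -1.68 to -1.33 for Loxl1, 1.01 to 1.27 for Loxl3 and 1.54 to 1.95 for Pcolce2, with the highest adjusted p at 0.0657, 0.0783, 0.106 and 0.0829. Without intermediate replicate 2 Loxl1 did not pass (limma adjusted p = 0.0629), and without outer replicate 1 Loxl3 did not (limma adjusted p = 0.0513). One slide held outer replicate 1 and the 3 intermediate arrays and the other slide only outer arrays, so the fit with slide as a block sets 1 outer array, the dimmest, against 3 intermediate ones and takes its spread to be that of the others. In it the differences were -1.40 for Lox, -1.81 for Loxl1, 1.98 for Pcolce2 and 1.19 for Loxl3, the last no longer past the threshold (limma adjusted p = 0.0578), where 6.75% of all genes passed. Fitting the first slide alone gives the same differences by design, because the other slide holds no intermediate array, so it is no second check. With each array scaled to its median Loxl3 was at 0.77 and did not pass (limma adjusted p = 0.128).

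**Figure D5:**
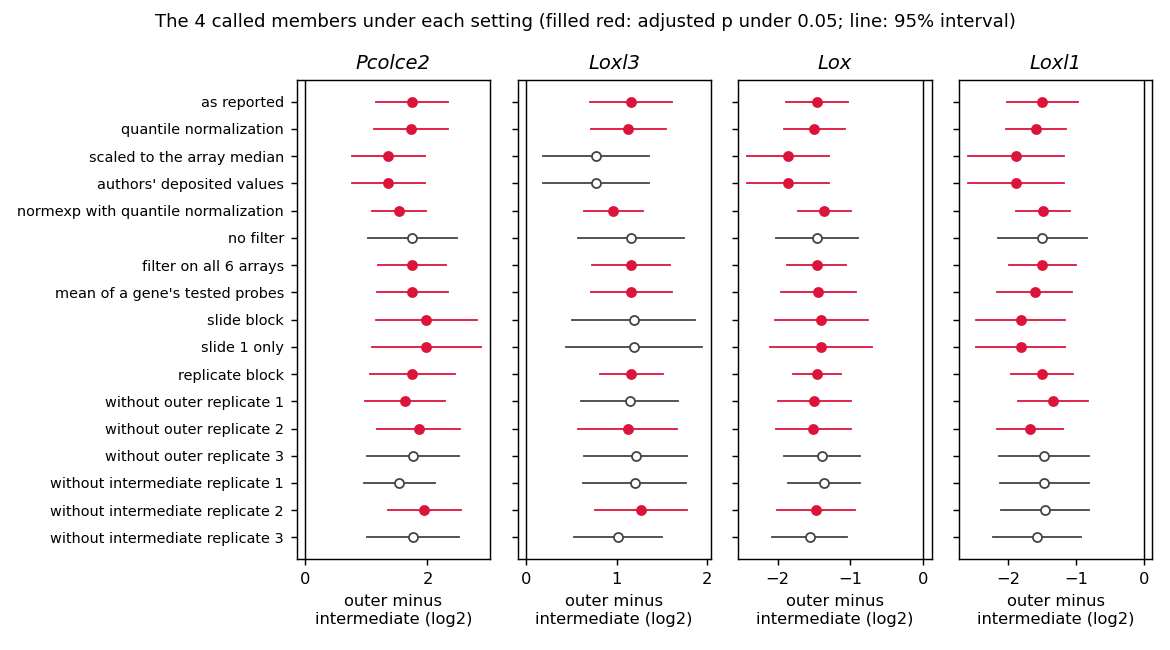
Outer minus intermediate difference (log2, horizontal axes, scaled per panel) with 95% interval for the 4 called genes under each processing setting, filled where adjusted p was under 0.05. Lox passed in 12, Loxl1 in 11, Loxl3 in 7 and Pcolce2 in 12 of 16 alternatives, and no difference changed sign.

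A further 73 genes of the same route were examined, from lists of collagen hydroxylases, folding factors, export receptors, stress-response genes and propeptide proteinases. Of the 67 tested, 1 was higher and 1 was lower in the outer interzone, 2.99% against 4.05% of all genes. The median difference of the 67 was -0.07. P4ha2, a catalytic subunit of prolyl 4-hydroxylase and partner of P4hb, stood at 4.61, 4.51 and 4.66 in the outer and 3.54, 3.51 and 3.44 in the intermediate samples. It was 2.14-fold higher in the outer interzone (1.10, SE 0.15, limma adjusted p = 0.0173), while P4ha1, the other main catalytic subunit, differed by 0.02 (limma adjusted p = 0.969). P4ha3 was at 0.68, 0.09 and -0.38 in the outer and 2.44, 1.23 and 1.25 in the intermediate samples, a difference of -1.51 that did not pass (limma adjusted p = 0.0986). P4ha3 passed when blocked on replicate number (limma adjusted p = 0.0289) and with each array scaled to its median (-1.90, limma adjusted p = 0.0214), while the mean of its probes gave -0.93 (limma adjusted p = 0.263).

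Adamts2, the main procollagen N-proteinase, stood at 1.24, 2.63 and 1.92 in the outer and 4.04, 3.76 and 4.01 in the intermediate samples. It was 4.02-fold lower in the outer interzone (-2.01, SE 0.34, limma adjusted p = 0.0286). Its relatives Adamts3 and Adamts14 differed by 1.23 and -0.28 without passing (limma adjusted p = 0.211 and 0.457). P4ha2 did not pass without outer replicate 3, intermediate replicate 1 or intermediate replicate 3 (limma adjusted p = 0.0747, 0.0672 and 0.0925), nor did Adamts2 (0.0984, 0.0993 and 0.121), which also failed without intermediate replicate 2 (0.0737). With each array scaled to its median P4ha2 was at 0.71 and did not pass (limma adjusted p = 0.117). Of the 16 further folding genes, 16 export and retrieval genes and 17 stress-response genes tested, 0 passed in limma. At an unadjusted p under 0.05 were 0, 2 and 1 of them, against 3793 of all 18001 genes. Of the 12 further collagen modification genes and 6 propeptide genes tested, 5 and 2 were at an unadjusted p under 0.05. The layers did not overlap for 41.7% of those 12 and for 22.4% of all 67 further genes tested, against 27.1% of all genes. P3h1, a prolyl 3-hydroxylase, was among those of the 12 without overlap (0.81, 95% interval 0.16 to 1.46, limma adjusted p = 0.161). Sec16b, a scaffold of ER exit sites, was at 0.98 (limma adjusted p = 0.0525). It passed with the filter on all 6 arrays, normexp, the mean of its probes, the slide block and without outer replicate 2 (limma adjusted p = 0.0275 to 0.0493), and was at 0.59 with each array scaled to its median (limma adjusted p = 0.175).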

How the data were processed

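Cy3-labelled cRNA from 6 samples was hybridised to one-colour arrays. Per the file headers, spots were quantified by Feature Extraction (Agilent, 10.7.3.1). The deposited scanner files give a background-subtracted, detrended intensity per spot. Partek 6.11.0321 is also named in the submitters' processing notes, with no role stated. The authors' deposited table holds the same intensity divided by each array's median. Probe positions are on mm9.

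Spots of a probe were averaged on the log2 scale without flagged outliers, which left 9 of 55681 probes without a value. Symbols were updated through RefSeq accessions (26762 of 28390 probes matched). Members were matched by the name in the files. Log2 signals, less the 75th percentile of their array, were fitted with limma 3.58.1 in R 4.3.3, two-sided, after a check on simulated data. The members, lists, tests and promoter motifs were chosen with earlier results of these data known. Every called member, the 3 members of each role with the largest difference and the genes with the stress element are given by sample. Matches of a further promoter motif are not reported here. Of the further pathway genes, those called are given. Per-sample values of Serpinh1, Fkbp10, Pcolce, Tll1, Bmp1, Loxl2 and P4ha3, and the values of P4ha1, P3h1, Adamts3, Adamts14 and Sec16b, were added after they were seen.

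Samples with the same number in both layers showed related deviations from their group means, with correlations of 0.563, 0.479 and 0.372 for numbers 1, 2 and 3. For samples of different numbers the correlations were -0.533 to 0.114. The numbers may pair the samples, but the labels do not say so, and the fit as reported has no block. Its intervals and calls are those of unpaired samples. With replicate number as a block 1635 of all genes passed, against 729 as reported. Alternatives were other scalings, the authors' values, normexp (offset 50) with quantile normalization, other filters and probe rules, slide and replicate blocks, and leaving out each array.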

Additional observations from a re-analysis of the deposited data

How the results depend on the processing

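None of the 4 called members changed sign under the 16 alternatives. They lost their call in 22 of 64 fits, at the values given in the report. Those fits, and the ones counted next, are not all distinct. The authors' values repeat the median scaling, and slide 1 alone repeats the differences of the slide block. Members that did not pass changed sign in 70 of 638 fits (25 genes) and passed in 3. The members called numbered 4 as reported, 0 to 5 on leaving out single arrays, 0 without a filter (limma, 5 at an unadjusted p under 0.05) and 3 to 6 otherwise. The replicate block gave 6 and changed no other call of a member than those of Tll1 and Creb3l1. The other pathway genes called numbered 2 as reported, 0 to 4 on leaving out single arrays, 0 without a filter (6 at an unadjusted p under 0.05) and 4 with the replicate block. Over all genes, 729 were called (282 higher and 447 lower in the outer interzone). Leaving out single arrays gave 66 to 1121. Quantile normalization gave 446, scaling to the median and the authors' values 1095 each (158 higher and 937 lower), the filter on all 6 arrays 459, the slide block 1215, slide 1 alone 1317 and the replicate block 1635 (836 higher and 799 lower). Without a filter limma called 0 of 35077, with 4268 at an unadjusted p under 0.05. The cause of these changes was not tested. Low signal limits the dimmest members. On outer replicate 1 Atf6 and Tll1 were at -2.04 and -2.06, where the lowest level called above background was -1.81. Loxl4 was near background in both layers.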
